A study of Mus musculus and Homo sapiens with 4 samples.

Results

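SNORD3 is the gene family that encodes U3 small nucleolar RNA. The 4 copies named here were taken to lie in 2 windows of 10 kb on human chromosome band 17p11.2. Whether other copies lie outside the windows was not determined. In the line labelled MDA-MD-231, 8 of the 2911 Miz1 peaks called fell inside the windows. The peaks were chosen by position alone: every peak of the human list that overlapped bases 18960000 to 18970000 or bases 19088000 to 19098000 of chromosome 17 (hg19) was taken, and 4 were found in each window. Both windows were picked because earlier work on these data had found a run of close peaks there, so the number of peaks and their closeness describe the choice and are not findings. Widths, scores and positions come from the same peak list and are given as a description, with no test.

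Miz1, encoded by ZBTB17, is a transcription factor with zinc fingers that contact DNA, and it can form complexes with MYC. Its binding was mapped by ChIP-seq, in which DNA crosslinked to the factor is pulled down with an antibody and sequenced. The human cells were grown in medium with fetal calf serum and had no genetic change or treatment named in the labels. They gave 1 Miz1 library, with the antibody G18, and 1 input library of unselected chromatin DNA. A second peak list, from neuronal progenitor cells of mouse brain at stage E13.5, grown as neurospheres, with the antibody H190, holds 261 peaks and enters none of the comparisons. Neither input values nor read depth were analysed here, and the peaks are shown without a background level. With 1 Miz1 library no value has a replicate error.

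U3 is an abundant small nucleolar RNA that guides the first cleavages of the ribosomal RNA precursor and the assembly of the small ribosomal subunit in the nucleolus. It works as a particle with the box C/D proteins fibrillarin, NOP56, NOP58 and SNU13 and with the U3-specific protein RRP9. Most human box C/D small nucleolar RNAs are cut out of introns of host genes, whereas U3 is transcribed from promoters of its own, by RNA polymerase II. Human U3 genes exist in several near-identical copies. The copies named for the 2 windows are SNORD3A, SNORD3B-1, SNORD3B-2 and SNORD3C.

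No annotation of hg19 was used here. Which copy lies under which peak, on which strand, and whether a peak covers the transcribed part or the promoter, were therefore not determined. The label rests on the position of the windows, and nothing in the peak list names a gene. The SNORD3 copies are also close to identical in sequence, so a short read can match more than 1 of them. The sources used here do not say how reads with several matches were placed, and the share of a score that belongs to a single copy is uncertain for all 8 peaks. The number, widths and edges of the peaks carry the same uncertainty, and so does any likeness between the loci. The loci are therefore not known to be independent observations.

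The locus with the lower coordinates is called the telomere-side locus here, because base 1 of chromosome 17 is the tip of its short arm, and the other the centromere-side locus. Left and right follow increasing coordinates. The score of a peak is the authors' own value, whose scale is not defined in the sources used here. Scores were used within the human list only, to describe, select and rank peaks and to form ratios. As the scale is unknown, a ratio of scores is not known to be a ratio of binding. A percentile is the share of all 2911 human peaks with a smaller value, with ties counted in part, unless another set is named.

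The telomere-side locus carried a narrow peak, 2 wide peaks and another narrow peak, over bases 18964631 to 18967980 of chromosome 17. The first peak (bases 18964631 to 18964949) was 319 bp wide with a score of 288. The second (bases 18965184 to 18966006) was 823 bp wide with a score of 165. The third (bases 18966538 to 18967393) was 856 bp wide and had the highest score of this locus, 339. The fourth (bases 18967684 to 18967980) was the narrowest of all 8 peaks, at 297 bp, and had the lowest score of this locus, 131. The gaps between neighbouring peaks were 234, 531 and 290 bp, so the longest gap lay in the middle, between the wide peaks. Peaks covered 2295 of the 3350 bp from the first start to the last end, or 68.5%.

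The centromere-side locus showed the same order of narrow, wide, wide and narrow peaks, over bases 19090733 to 19094124. Its first peak (bases 19090733 to 19091053) was 321 bp wide with a score of 248. The second (bases 19091264 to 19091995) was 732 bp wide and had the highest score of all 8 peaks, 411. The third (bases 19092696 to 19093338) was 643 bp wide and had the lowest score of all 8, 128. The fourth (bases 19093791 to 19094124) was 334 bp wide with a score of 363. The gaps were 210, 700 and 452 bp, again with the longest in the middle. Peaks covered 2030 of 3392 bp, or 59.8%.

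**Figure D1:**
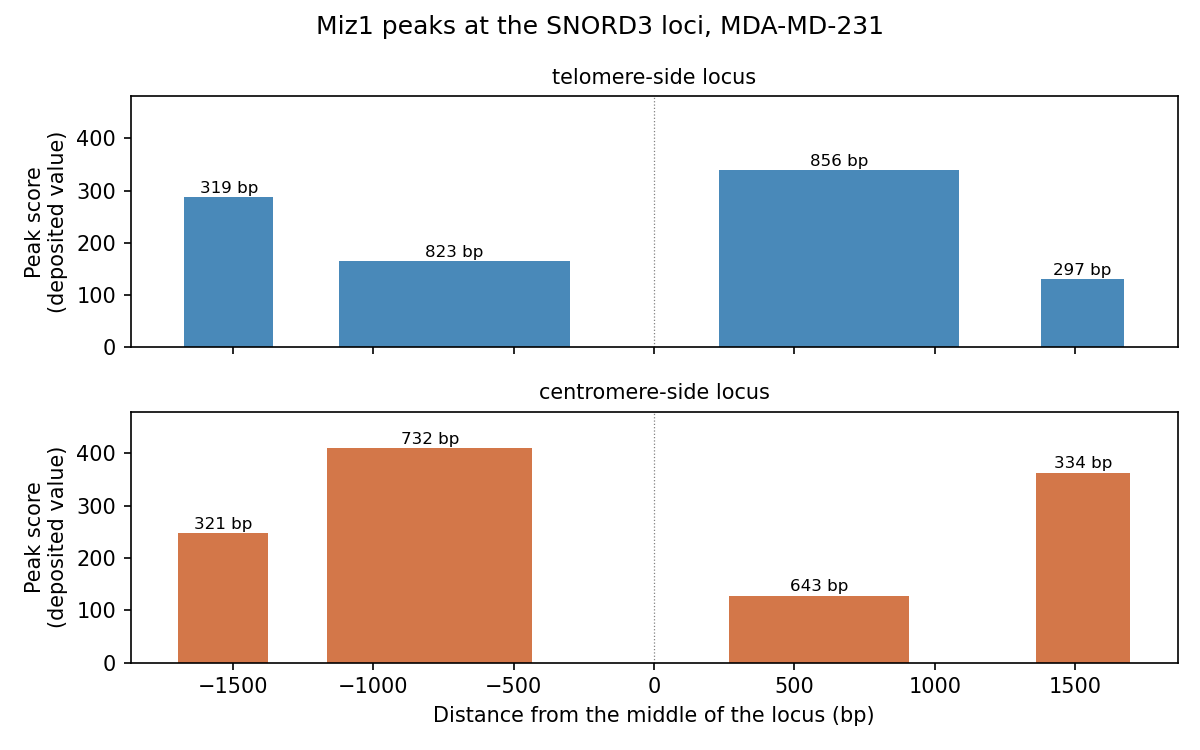
The 4 Miz1 peaks of each SNORD3 locus as bars, with the distance from the middle of the locus in bp on the x axis and the deposited score on the y axis; the number above a bar is the peak's width. In both loci narrow peaks of 297 to 334 bp lie outside and wide peaks of 643 to 856 bp inside, while the heights of the bars follow no common order from left to right.

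The loci were nearly equal in extent, at 3350 and 3392 bp. They differed in width mainly at the wide peaks: in the same order, the narrow peaks differed by 2 and 37 bp between the loci, and the wide peaks were 91 and 213 bp narrower at the centromere-side locus. A stretch of 122.752 kb separated the loci.

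To compare the loci as duplicated sequence, the peaks of 1 locus were laid on those of the other by a shift. In the same order, the best shift was 126.079 kb, after which matched peak centres differed by 37.0 bp (root mean square over 4 peaks) and by 46.9 bp at most. Of all bases covered in either locus, 81.3% were then covered in both. The left edges fitted more closely than the right edges: offsets of the left edges lay between 126080 and 126158 bp, a range of 78 bp, and offsets of the right edges between 125945 and 126144 bp, a range of 199 bp.

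The layout also matched with the centromere-side locus turned around. Matched centres then differed by 67.1 bp, and 75.8% of covered bases were shared. Which orientation was closer depended on the part of a peak that was used. By left edges of the telomere-side peaks the same order was closer (28.6 against 109.5 bp turned around), and by their right edges the turned order was closer (29.9 against 81.3 bp in the same order). The peaks therefore do not fix the orientation of the loci to each other.

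Each locus was also compared with itself turned around, and the telomere-side locus was close to symmetric about its own middle. The telomere-side locus laid on its own mirror image gave a root mean square difference of 30.75 bp, and 89.8% of covered bases were shared. Its 4 pairs of matching edges had midpoints within 44.5 bp of each other. The centromere-side locus was less symmetric, with a difference of 102 bp, 66.5% of bases shared and midpoints within 127.5 bp. Shares from 22.8 to 71.9% were found for pairs of sets of 4 close consecutive peaks with no peak in common. The pair of SNORD3 loci was left out. Most of these pairs included a SNORD3 locus, and the 22.8% came from a pair with the centromere-side locus itself. No other run was laid on its own mirror image, so this range does not rank the symmetry of the loci. At the centromere-side locus the inner peaks were displaced: the midpoint between their outer edges lay 127.5 bp, and that between their facing edges 83 bp, to the left of the middle of the locus.

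By its order of narrow, wide, wide and narrow peaks, each locus can be read as 2 facing pairs. The reading rests on that order and not on symmetry, as the centromere-side locus was less symmetric. Each pair has a narrow outer and a wide inner peak, which gives 4 such pairs in all. This is also the number of SNORD3 copies named for the windows, and whether each pair sits on 1 copy was not determined here. The narrow peak was 319 and 297 bp wide in the left and right pair of the telomere-side locus, and 321 and 334 bp in those of the centromere-side locus. The wide peak was 823 and 856 bp wide in the former and 732 and 643 bp in the latter. The narrow peaks thus varied by a factor of 1.12 from the narrowest to the widest, and the wide peaks by a factor of 1.33. The gap inside a pair varied most, from 210 to 452 bp, a factor of 2.15. A whole pair spanned 1263 to 1443 bp.

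The wide peak of a pair had the higher score in 2 of the 4 pairs. In the left pair of the telomere-side locus the narrow peak scored 288 and the wide peak 165, and in the right pair of the centromere-side locus they scored 363 and 128. In these 2 pairs the narrow peak was 1.74 and 2.83 times as high as the wide one. In the right pair of the telomere-side locus the narrow peak scored 131 and the wide peak 339, and in the left pair of the centromere-side locus 248 and 411. Here the wide peak was 2.59 and 1.65 times as high as the narrow one. In the human list, 112 other pairs of neighbouring peaks less than 1 kb apart differed in both width and score. In 80.4% of these the wider peak had the higher score. The same count at the SNORD3 loci also takes the 2 wide peaks in the middle of each locus as neighbours. There the wider peak had the higher score in 4 of the 6 pairs of neighbouring peaks, and the difference was not tested. The 2 exceptions were the pairs led by their narrow peak.

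**Figure D2:**
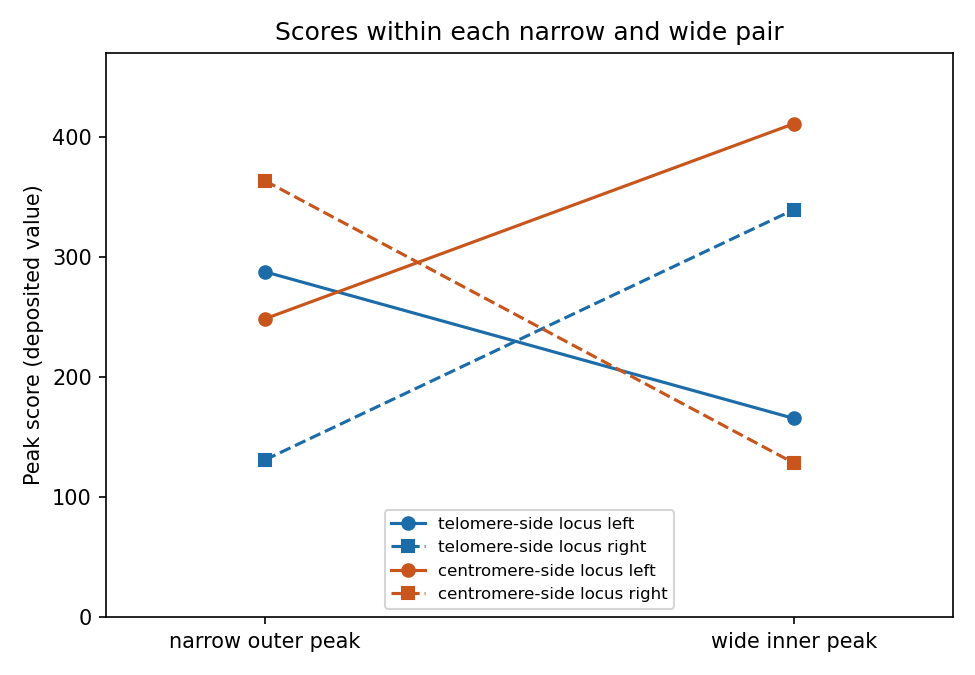
Deposited score (y axis) of the narrow outer and the wide inner peak of each of the 4 pairs, joined by a line; blue marks the telomere-side and orange the centromere-side locus, solid lines the left and dashed lines the right pair. The lines cross: 2 fall from the narrow to the wide peak, and the other 2 rise.

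The pairs whose scores were most alike came from different loci and lay at opposite ends. The left telomere-side pair and the right centromere-side pair differed by a factor of 1.26 in the narrow peak and 1.29 in the wide one. The right telomere-side pair and the left centromere-side pair differed by factors of 1.90 and 1.21. In each of the other 4 combinations at least 1 of the peaks differed by a factor between 2.20 and 3.20. Scores of matched peaks therefore lay closer with the centromere-side locus turned around, by a median factor of 1.28, than in the same order, by a median factor of 2.57. Peak centres gave the opposite ranking of the orders. As these are 4 matched peaks of 1 library, neither ranking has an error.

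Between the loci as wholes, the median score was 227 at the telomere-side and 306 at the centromere-side locus, a ratio of 1.35. Their ranges overlapped almost entirely, from 131 to 339 and from 128 to 411. In the same order the centromere-side peak was higher in 2 of 4 matches, and turned around in 3 of 4. Within a locus the highest score was 2.59 times the lowest on the telomere side and 3.20 times on the centromere side. A full range of 4 scores and a ratio of medians are unlike measures, so these values do not rank the spread against the difference.

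Set among all human peaks, the 8 peaks were of middling score. Scores above the list median of 185 were found for 5 of 8, where 50.0% of the list lies above it, and 5 of 8 scored 200 or more, against 45.6% of the list. None of the 8 reached the ceiling of 3100, at or above which 5.53% of the list lies. Their score percentiles ran from 25.7 for the third centromere-side peak to 75.5 for its left neighbour. All 8 had another peak within 1 kb, against 7.52% of the list, which repeats the choice of the windows.

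In width the peaks fell into separate sets. The 4 narrow peaks lay at percentiles 36.9 to 47.1, just below the list median of 346 bp, and the 4 wide peaks at percentiles 85.7 to 92.0. A width above that median was thus found for 4 of the 8, where 49.6% of the list lies above it. Peaks wider than 500 bp made up 4 of the 8, against 24.0% of the list. No SNORD3 peak had a width between 334 and 643 bp. The widths of the narrow peaks were ordinary for the list, of which 10.6% lay in the same range of 297 to 334 bp.

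For their width, both the narrow and the wide peaks scored on both sides of the middle. The list holds 306 other peaks between 297 and 334 bp, with a median score of 194 (quartiles 133 and 367). Of the narrow SNORD3 peaks, 3 of 4 lay above that median, and the other, with a score of 131, lay below the lower quartile. Their percentiles among these peaks ran from 23.2 to 74.5. Another 181 peaks were 643 to 856 bp wide, with a median score of 275 (quartiles 153 and 918), and 8.84% of them reached the ceiling. Of the wide SNORD3 peaks, those with scores of 339 and 411 lay above that median, and those with 165 and 128 below it. The highest, at 411, was at percentile 64.6 of these peaks of like width, and the lowest, at 128, at percentile 12.7.

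**Figure D3:**
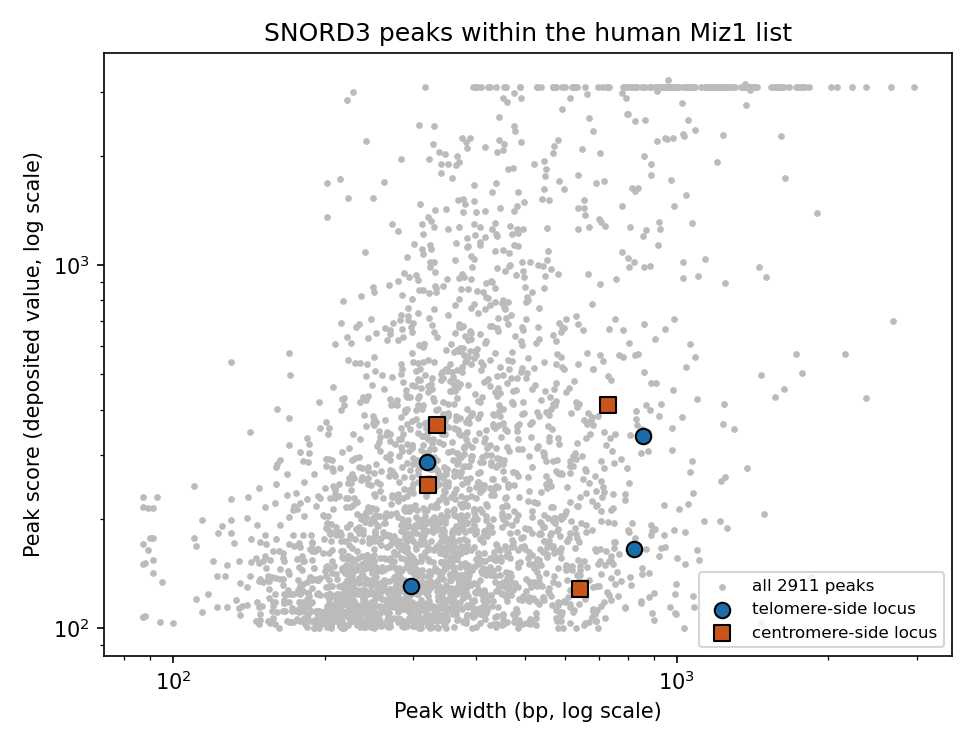
Width (x axis, bp, log scale) and deposited score (y axis, log scale) of all 2911 human peaks in grey, with the telomere-side SNORD3 peaks as blue circles and the centromere-side peaks as orange squares. The SNORD3 peaks form a narrow set of 297 to 334 bp and a wide set of 643 to 856 bp, and both sets reach from scores near 130 (131 and 128) up to 363 and 411.

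Runs of peaks as dense as these were rare in the list. Stretches in which 4 or more peaks followed each other with gaps under 1 kb numbered 4: the 2 SNORD3 loci, a run of 8 on chromosome 1 (bases 16268424 to 16275040) and a run of 4 on chromosome 2 (bases 1346113 to 1350074). The chromosome 1 run had a median score of 3100 and the chromosome 2 run of 631, both above the medians of 227 and 306 at the SNORD3 loci. The chromosome 2 peaks were 295 to 1901 bp wide and covered 92.0% of their run, more than the 68.5% and 59.8% at the SNORD3 loci.

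These runs gave 8 sets of 4 consecutive peaks, 5 of them overlapping sets of the chromosome 1 run. Both outer peaks were narrower than both inner peaks in the 2 SNORD3 loci and in 1 of the other 6 sets, in the chromosome 1 run. The difference in layout was computed for every pair of sets with no peak in common. Over the other 18 pairs, in both orders, it had a median of 296 bp and was 130 bp at the least, against 37.0 and 67.1 bp for the SNORD3 loci. Most of these 18 pairs included 1 SNORD3 locus, and the 130 bp was between the centromere-side locus and the chromosome 2 run. The pairs without a SNORD3 locus all included a set of the chromosome 1 run. Their lowest value was 191 bp, between 2 sets of that same run. The covered bases shared by the other 18 pairs ranged from 22.8 to 71.9%, below the 81.3 and 75.8% of the SNORD3 loci. Sets of the chromosome 1 run that share peaks with each other, left out of this count, came as low as 29.0 bp. The pairs reuse the same few runs, so their number measures no precision.

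**Figure D4:**
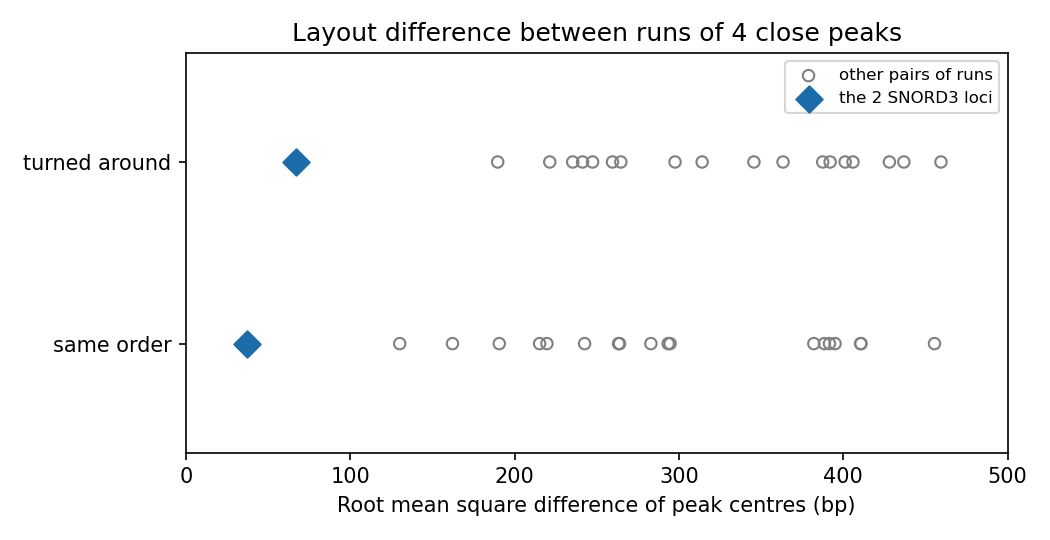
Root mean square difference of matched peak centres in bp (x axis) between 2 sets of 4 consecutive peaks. Both sets were read in the same order, or 1 of them was turned around (y axis). The 2 SNORD3 loci (diamonds) lie at 37.0 and 67.1 bp, and the other pairs of sets without common peaks (circles) at 130 bp or more. Most of these other pairs include 1 SNORD3 locus.

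Peaks near the loci lay far off on the outer sides and closer on the inner side. Between the loci lay 2 peaks: 1 of 289 bp with a score of 211 (bases 19016189 to 19016477), 48.2 kb from the telomere-side locus, and 1 of 338 bp with a score of 131 (bases 19061852 to 19062189), 28.5 kb from the centromere-side locus. These are the nearest peaks left out by the windows. The nearest inside the edges were the fourth telomere-side peak, 2020 bp from its window's end, and the first centromere-side peak, 2733 bp from its window's start. Outward, the next peaks lay 379 kb towards the telomere (501 bp wide, score 489) and 536 kb towards the centromere (303 bp wide, score 136). Those distances are above the median gap of 167 kb on chromosome 17, at percentiles 71.7 and 79.3 of its 210 gaps. On the inner side the gaps were 48.2, 45.4 and 28.5 kb, all below that median. The stretch of 1044 kb between the outer neighbours holds 10 peaks, 8 of them at the SNORD3 loci. That share follows from the bounds: the stretch could hold only the SNORD3 peaks and those between the loci.

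No counterpart of the neighbouring peaks was found, but many of the positions examined could not have shown one. Each of the 4 neighbouring peaks was moved by the shift between the loci in both directions and was also turned around, which gave 12 positions. No peak of the list lay within 1 kb of any of them, and the smallest distance was 19.7 kb. Moving the peaks between the loci by the shift, or the outer neighbours inward, put them in the stretches beside the loci that hold no peak. Turning around gave the same distance for both peaks between the loci, and likewise for both outer neighbours. The positions therefore say little about whether the match extends to the neighbours. In this list the shared layout was described only over the 3350 and 3392 bp of the loci. How far the duplicated sequence itself extends was not determined here.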

How the data were processed

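Of 4 samples, the human Miz1 library gave the peak list used here. For each peak the deposited file, which has no header, holds the position, a name and the authors' score. CASAVA, FastQC, Bowtie 0.12.7, MACS 1.4.2 and the builds mm9 and hg19 are named in the submitters' processing notes, and settings, use of the input and depth are not stated in the sources used here. Per the labels' protocols, chromatin was sonicated to fragments averaging below 500 bp, and DNA of about 200 bp was amplified with 18 PCR cycles.

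Coordinates are printed counting from 1. Peaks overlapping the windows were described with Python 3.11.15 and numpy 2.4.6. Loci were compared by matching peaks in order, in either orientation, after the mean shift of their centres. The layout code was tested on simulated loci in the same order and with both turned around. No simulated case turned only 1 of the loci around or laid a locus on its own mirror image. Every peak of the rule and its nearest neighbours are named. A planned count of U3 pathway genes with a peak was not run, because no hg19 annotation was used. The peaks and comparisons were chosen with earlier results of these data known. The pairs of narrow and wide peaks, the peaks of like width, the neighbouring peaks and their mapped positions, and the alternatives with gaps under 2 kb or peaks merged within 500 bp were chosen after the values were seen.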

Additional observations from a re-analysis of the deposited data

How the results depend on the processing

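With 1 library, no replicate could be left out. Widening the windows by 10 kb, requiring the peak centre inside them, or merging peaks less than 200 bp apart left 4 peaks at each locus. Keeping scores of 200 or more left 2 telomere-side and 3 centromere-side peaks. Merging peaks less than 500 bp apart left 2 at each, by construction. The layout difference in the same order, 37.0 bp by centres, was 28.6 bp by left edges of the telomere-side peaks, 81.3 bp by their right edges and 44.3 bp with the first peaks laid on each other. Turned around, 67.1 bp became 109.5, 29.9 and 102.6 bp, so the closer order changed with the right edges. With the shift that shares the most bases, 83.2% were shared in the same order and 78.1% turned around. The ratio of scores between the loci was 1.25 by the mean or the sum. The median width of the 8 peaks, at percentile 75.0 of the list, was at 67.3 among chromosome 17 peaks and 78.9 among peaks below the ceiling. The median score, at percentile 64.7, was at 62.1 and 68.4. For runs with gaps under 2 kb the median difference of other pairs was 354 bp, and their lowest stayed at 130 bp. Apart from the merging, the cause of these changes was not tested. The unknown depth limits every score.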

Other observations

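In the mouse list, runs of peaks with gaps under 1 kb were 3 runs of 2 peaks and 1 run of 6, and no run of 4 was found. The mouse gene table used, of build GRCm38.p6, names 5 U3 genes: Rnu3a on chromosome 10, and Rnu3b1, Rnu3b2, Rnu3b3 and Rnu3b4 on chromosome 11. The mouse peaks are in mm9, so no mouse peak was assigned to these genes. In the human list, runs of exactly 2 peaks with gaps under 1 kb numbered 86 and runs of 3 numbered 9.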
